A study of Arabidopsis thaliana with 18 samples.

Results

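Etiolated seedlings that had received 60 min of white light (WL) were set against seedlings that had stayed in the dark, over all genes. The comparison used 6 of the 18 RNA-seq libraries of a deetiolation time course, 3 from the 60 min group and 3 from the dark group, chosen by their labels. Of 34212 genes in the tables, 16747 passed the filter on genes without counts and were tested. All groups were whole Col-0 seedlings, the wild type, grown in darkness for 5 days at one temperature on medium without sucrose. The 60 min group was then moved into WL, and the dark group was collected under green light without WL. The other groups of the time course received 15, 30, 150 or 360 min of WL. No dark seedlings were collected beside the 60 min group, so the effect of light and the passing of 60 min cannot be told apart. A whole seedling mixes organs and cell types, so more cells of a type and more RNA per cell cannot be told apart either.

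A seedling that germinates in darkness elongates its hypocotyl and keeps its cotyledons closed and pale. There the phytochrome interacting factors (PIFs), a group of bHLH transcription factors, keep growth genes on, and the COP1-SPA ubiquitin ligase removes the bZIP factor HY5. Light acting through phytochromes and cryptochromes removes PIFs and lets HY5 accumulate, and the seedling turns to greening, which needs antenna proteins, chlorophyll and protection against excess light.

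The libraries differed in ways the groups do not explain. Plastid ribosomal RNA took 82.5%, 65.5% and 3.36% of the estimated counts in replicates 1, 2 and 3 at 60 min, against 34.8%, 43.5% and 72.0% in the dark. Without it 1992250, 3078560 and 3457978 counts were left at 60 min, against 8974704, 7484579 and 3403528 in the dark. In each of the 6 groups 1 library also stood apart in PXMT1 (AT1G66700), which encodes a methyltransferase, with 18.4 to 67.3 normalized counts where the other 12 libraries had 1598 to 6580. A normalized count is a gene's count scaled by TMM to a common library size. At 60 min this PXMT1-low library was replicate 3, and in the dark it was replicate 1. Across the time course 18971 genes had a mean normalized count above 5. Of these, 150 were lower in every PXMT1-low library than in any other and 58 were higher. Among the 150 were the glutathione transferases GSTF6 and GSTF7, CYP71A12 of camalexin synthesis, the peptide precursor PROPEP3 and WRKY33. These genes are known from defence and were picked with their values in view. The 150 also held other kinds, such as the plastid-encoded genes ATCG00350 and ATCG00670. In each group the PXMT1-low library also had the smallest share of plastid ribosomal RNA. The origin of the split is not given by the labels and was not tested.

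Under edgeR's quasi-likelihood test with a Benjamini-Hochberg adjusted p below 0.01, 134 genes were higher at 60 min than in the dark (0.800% of those tested) and 8 were lower (0.0478%). In all 142 called genes the 3 libraries at 60 min lay wholly above or wholly below the 3 dark libraries. Such separation was found in 14.4% of all genes tested, 1154 above and 1255 below. Called genes that were higher had log2 fold changes from 1.57 to 7.25, with a median of 2.86, and those that were lower had falls from -1.95 to -3.52. The median over all genes was 0.02. At an unadjusted p under 0.05 in edgeR, 1119 of the 16747 genes tested were higher and 760 lower. Of the called genes, 37 of the 134 higher and 3 of the 8 lower belong to the 17 functional lists described here. With a term for the PXMT1-low libraries the test called 194 higher and 25 lower, all 142 among them. Without those 6 libraries it called 85 higher and 5 lower, of which 72 and 2 were among the 142; that fit has 2 libraries in each group instead of 3. The count rested on every dark library, since 66, 78 and 75 genes were higher without dark replicate 1, 2 or 3, against 112 to 126 without a 60 min library. Of lower genes 1, 3 and 7 were left without dark replicate 1, 2 or 3, and 5, 7 and 5 without replicate 1, 2 or 3 at 60 min. With the replicate number as a block the test called 104 higher and 4 lower. Fitted on the 6 libraries alone, without the other groups, it called 20 higher and 0 lower. In each list with genes called higher, edgeR and DESeq2 called none lower, with 3 light signalling genes, 1 B-box gene and 1 chlorophyll gene lower at an unadjusted p under 0.05 and none in the other such lists.

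**Figure D1:**
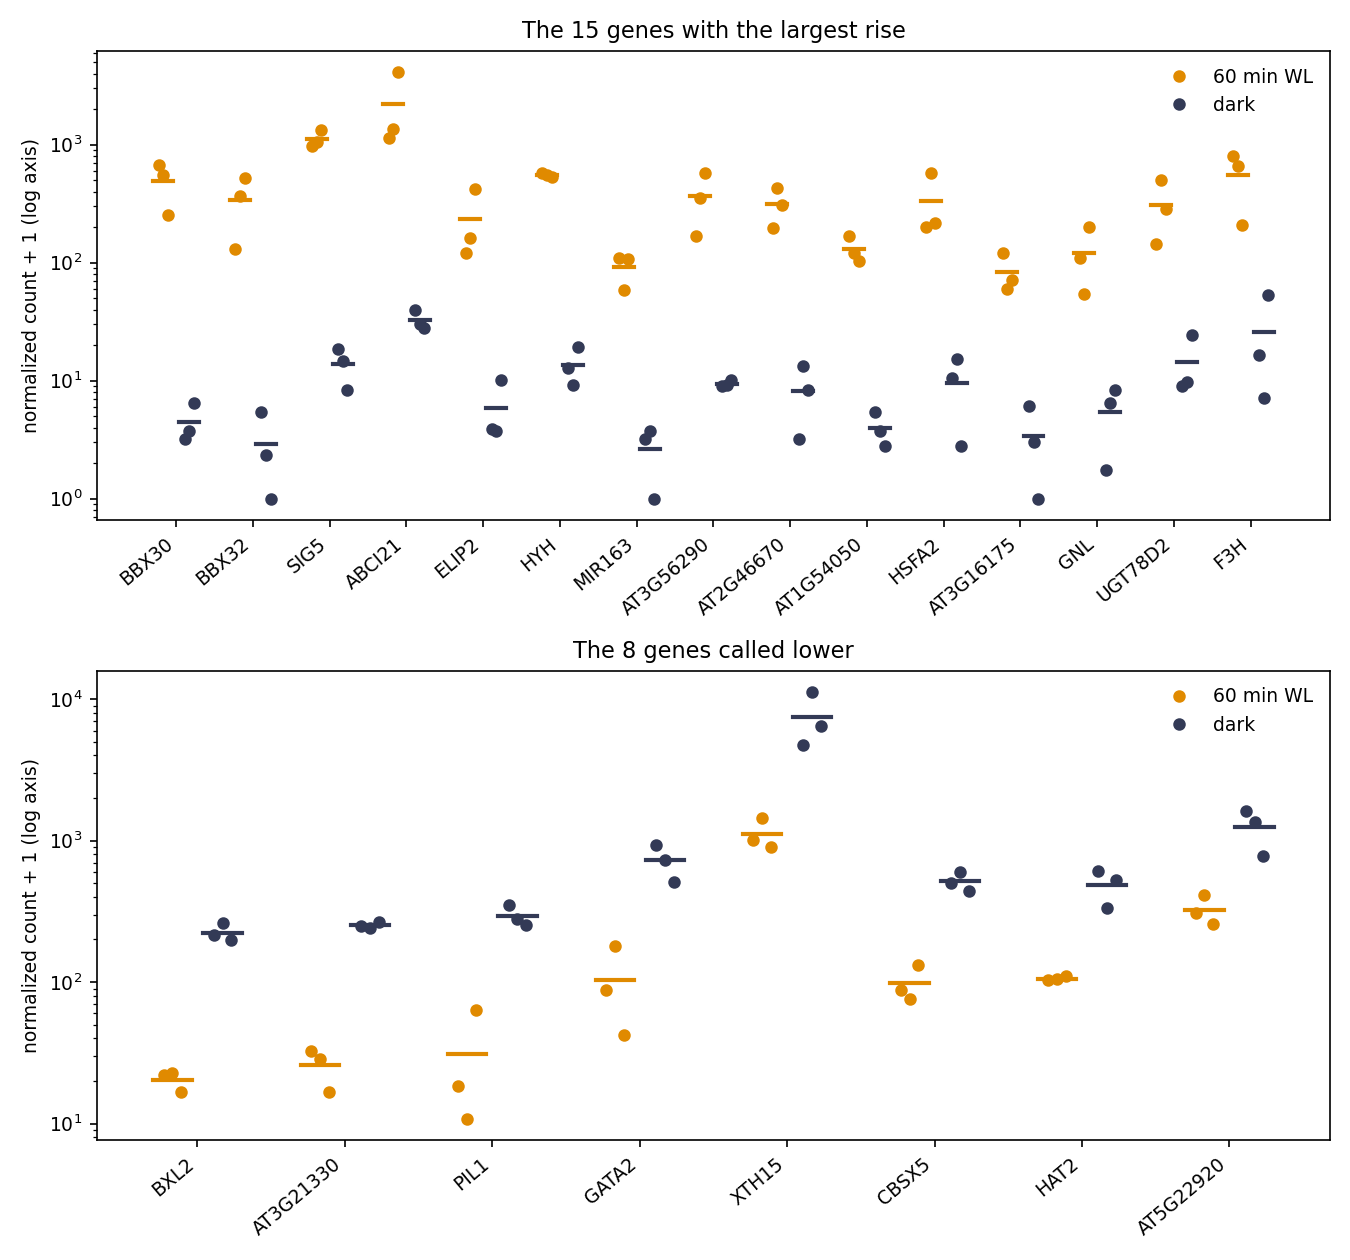
Normalized counts plus 1 (log axis) in the 3 libraries after 60 min of WL (orange) and the 3 dark libraries (dark blue) for the 15 genes with the largest rise and the 8 genes called lower; points are libraries in the order of replicates 1, 2 and 3, and lines are group means. In every gene shown the 60 min points lie on one side of the dark points, which the rule for choosing these genes required.

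The largest rises were in B-box genes, which encode zinc finger proteins that act with HY5 and COP1 or as small binding partners of other regulators. BBX30, a microprotein of this family, had 676, 549.7 and 252 normalized counts at 60 min, against 2.20, 2.72 and 5.44 in the dark. It was near the limit of detection in the dark and the lowest library at 60 min was the PXMT1-low one. The log2 fold change of BBX30 was 7.25 ± 0.82 (SE, edgeR adjusted p = 1.53e-05). It was the 1 gene still called when libraries were scaled to totals that include the plastid ribosomal RNA. BBX32, which represses light responses, had 130, 368 and 520 normalized counts at 60 min, against 4.40, 1.36 and 0 in the dark (log2 fold change 7.17 ± 1.01). One dark library therefore held no count of BBX32, and its fold change depends on the handling of such zeros. BBX25 had 168, 225 and 175 normalized counts at 60 min, against 2.93, 17.7 and 1.81 in the dark (log2 fold change 4.53 ± 0.78). BBX25 had 4.13 on that scale without the PXMT1-low libraries and was not called (adjusted p = 0.0392). BBX24, a close relative of BBX25 and likewise a repressor of photomorphogenesis, was higher by 2.97 ± 0.40 on the log2 scale, with 1952 to 4629 normalized counts at 60 min, against 269 to 576 in the dark. BBX29 was higher by 2.93 ± 0.57, with its highest dark library, 93.8, below its lowest at 60 min, 179.

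The list of B-box genes holds 16 genes from BBX14 to BBX31, BBX32 not among them. Of these 14 were tested, 4 were called higher (BBX24, BBX25, BBX29 and BBX30) and none lower. The median log2 fold change of the 14 was 1.83, beside 0.02 over all genes. BBX31, a near relative of BBX30, had 77.1, 90.6 and 54.4 normalized counts at 60 min, against 5.13, 0.680 and 0 in the dark, and an adjusted p of 0.0118 that missed the threshold. BBX21, an activator of HY5, had 2011, 2134 and 2271 normalized counts at 60 min, against 2437, 3692 and 2350 in the dark. BBX20 had 10.5, 1.97 and 32.9 at 60 min, against 93.8, 177 and 79.8 in the dark, with an adjusted p of 0.134. The last 3 genes were chosen with their values in view. The members therefore ranged from -2.88 to 7.25 in log2 fold change.

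The bZIP regulators HY5 and HYH, its homologue, were both called higher. HYH had 578, 554 and 531 normalized counts at 60 min, against 11.7, 8.16 and 18.1 in the dark, a log2 fold change of 5.51 ± 0.60 (edgeR adjusted p = 1.19e-05). Its 3 libraries at 60 min lay closer together than those of any other of the 15 genes with the largest rise, at 554 ± 23.6 (SD, n = 3), against 12.7 ± 5.06 (SD, n = 3) in the dark. HY5 had 4916, 3357 and 1567 normalized counts at 60 min, against 188, 168 and 372 in the dark. Its log2 fold change was 3.76 ± 0.60 (edgeR adjusted p = 0.000748), and its lowest library at 60 min was the PXMT1-low one.

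Among the light receptors and their signalling partners 25 genes were tested, 4 were called higher and none lower. Besides HY5 and HYH these were SPA3, a partner of COP1, and RUP1, a repressor of UV-B signalling. SPA3 had 382, 526 and 349 normalized counts at 60 min, against 73.3, 42.1 and 23.6 in the dark (log2 fold change 3.15 ± 0.52). RUP1 had 809, 826 and 429 at 60 min, against 203, 175 and 81.6 in the dark (log2 fold change 2.15 ± 0.38). Both repressors thus stood apart between the groups in all 6 libraries. PHYA, the phytochrome typical of etiolated seedlings, had 785, 1200 and 1344 normalized counts at 60 min, against 3466, 1672 and 1681 in the dark, and was not called (adjusted p = 0.357) although its groups did not overlap. The list's median was 0.40, and it was -0.46 without replicate 3 at 60 min and -0.19 without the 6 PXMT1-low libraries.

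Outside the lists, further genes of light perception and light-driven movement were among those called. Their choice was made with the values in view. RPT2, a phototropin partner in phototropism, had 2820, 2490 and 4139 normalized counts at 60 min, against 209, 131 and 120 in the dark (log2 fold change 4.36 ± 0.41). JAC1, PMI1 and PMI2, which are needed for chloroplast movement, were higher by 3.17 ± 0.54, 2.52 ± 0.50 and 3.10 ± 0.53. JAC1 had 347, 302 and 351 normalized counts at 60 min, against 36.6, 61.9 and 9.07 in the dark. Without the PXMT1-low libraries JAC1 had a log2 fold change of 3.08 and PKS1 of 2.31, and neither was called (adjusted p = 0.0342 and 0.0238). CRY3, a cryptochrome of plastids and mitochondria, was higher by 3.46 ± 0.46, and PKS1, a substrate of phytochrome, by 2.98 ± 0.44. DDB2, a protein that recognises damaged DNA, was higher by 2.86 ± 0.48, with 139 to 466 normalized counts at 60 min, against 30.8 to 58.6 in the dark.

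The chloroplast's own transcription depends on sigma factors made in the nucleus, and greening on GLK and GATA factors. SIG5, the sigma factor of the blue-light response of psbD, had 978, 1048 and 1324 normalized counts at 60 min, against 17.6, 13.6 and 7.25 in the dark. Its log2 fold change of 6.37 ± 0.47 had the smallest adjusted p of all genes, 5.10e-08 by edgeR. GLK2 had 1051, 1671 and 2006 normalized counts at 60 min, against 256, 309 and 181 in the dark (log2 fold change 2.66 ± 0.42). The paired GATA factors GNL, also called CGA1, and GNC were higher by 4.83 ± 0.92 and 2.68 ± 0.52. GNL had 109, 53.2 and 200.3 normalized counts at 60 min, against 0.733, 5.44 and 7.25 in the dark. Without the 6 PXMT1-low libraries GNL and GNC had log2 fold changes of 3.64 and 1.67, and neither was called (adjusted p = 0.163 and 0.227). In this list of 10 tested genes, 4 were called higher, none was called lower, and the median log2 fold change was 1.50.

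Antenna genes encode the chlorophyll-binding proteins that collect light for the photosystems. Of 21 tested, 6 were called higher (LHCB1.1, LHCB2.1, LHCB2.2, LHCB3, LHCA1 and LHCA4) and none lower, with a median log2 fold change of 0.97. LHCB1.1 had 1422, 1310 and 937 normalized counts at 60 min, against 105, 99.9 and 94.3 in the dark, a log2 fold change of 3.61 ± 0.42 (edgeR adjusted p = 1.64e-05). LHCB2.1 had 2418, 1773 and 3676 at 60 min, against 196, 492 and 131 in the dark (log2 fold change 3.26 ± 0.45). LHCB1.1 and LHCB2.1 each shared 31.2% of their 31-base words with other loci, so that reads can have been divided among the copies. LHCA1 and LHCA4 of photosystem I were higher by 2.64 ± 0.41 and 2.33 ± 0.40. LHCA4 had 4366, 6534 and 4290 normalized counts at 60 min, against 979, 1472 and 568 in the dark. LHCA1 had a log2 fold change of 1.94 without the PXMT1-low libraries and was not called (adjusted p = 0.0128). LHCB4.1, an inner antenna gene chosen after its values were seen, had 5963, 5099 and 2998 at 60 min, against 2552, 5854 and 3147 in the dark, and its groups overlapped. The antenna genes thus differed among themselves, from -0.79 to 3.61.

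ELIPs and their relatives bind pigments when light is in excess. ELIP2 had 119, 160 and 416 normalized counts at 60 min, against 2.93, 2.72 and 9.07 in the dark (log2 fold change 5.76 ± 0.66). ELIP1 had 245, 349 and 288 at 60 min, against 13.2, 18.4 and 34.5 in the dark (log2 fold change 3.80 ± 0.41). Together with OHP1, a 1-helix protein that was higher by 3.50 ± 0.49, these were the 3 called of 9 tested, and the median log2 fold change was 2.04. None of the 9 was called lower.

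Chlorophyll is made from protoporphyrin by magnesium chelatase and later enzymes. CHLH, a subunit of that chelatase, had 1454, 2071 and 3270 normalized counts at 60 min, against 159, 281 and 287 in the dark, a log2 fold change of 3.23 ± 0.37 (edgeR adjusted p = 1.64e-05). GUN4, which activates the chelatase, was higher by 2.58 ± 0.50, but 72.4% of its 31-base words also lie in the overlapping locus AT3G59410. CRD1, a subunit of the cyclase, was higher by 1.94 ± 0.38. PORC, a protochlorophyllide oxidoreductase of light-grown plants, was higher by 3.42 ± 0.68, with 98.1, 27.6 and 228 normalized counts at 60 min, against 11.7, 14.3 and 5.44 in the dark. Without the PXMT1-low libraries GUN4, CRD1 and PORC had log2 fold changes of 2.33, 1.72 and 2.47 and were not called (adjusted p = 0.0262, 0.0468 and 0.157). Of 19 tested genes these 4 were called higher and none lower, and the median log2 fold change was 0.16. PORA, the oxidoreductase that marks etiolated tissue, had 193, 211 and 638 normalized counts at 60 min, against 536, 952 and 470 in the dark, so that this marker was present in all 6 libraries and its groups overlapped.

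In the list of 10 carotenoid genes none passed the main edgeR test, although 5 were higher and none lower at an unadjusted p under 0.05. Over all 16747 genes tested, 1119 were higher and 760 lower at that level. DESeq2's Wald test called 3 higher and none lower. ZEP and PSY, which encode zeaxanthin epoxidase and phytoene synthase, had adjusted p of 0.0210 and 0.0296. Their log2 differences were 1.70 ± 0.39 and 1.80 ± 0.43, and the groups did not overlap in either. With a term for the PXMT1-low libraries ZEP was called (edgeR adjusted p = 0.00848) and PSY was not (0.0131). Without those libraries neither was called (0.0315 and 0.232). Of 15 Calvin cycle genes 2 were called higher, the aldolase FBA1 (2.55 ± 0.49) and the Rubisco small subunit RBCS1B (2.48 ± 0.51). None was called lower, and the list's median log2 fold change was 1.09. RBCS1B had 463, 924 and 686 normalized counts at 60 min, against 106, 103 and 165 in the dark, and shared 18.9% of its 31-base words with other loci. FBA1 had 263, 489 and 291 at 60 min, against 39.6, 116 and 18.1 in the dark. Without the PXMT1-low libraries FBA1 had a log2 fold change of 2.39 and RBCS1B of 2.38, and neither was called (adjusted p = 0.0350 and 0.0241).

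Flavonoids absorb UV light and are made early in deetiolation. F3H, flavanone 3-hydroxylase, had 795, 654 and 209 normalized counts at 60 min, against 15.4, 6.12 and 52.6 in the dark (log2 fold change 4.60 ± 0.63). The locus AT3G51238 overlaps F3H and holds 88.2% of its 31-base words, so the 2 cannot be told apart. UGT78D2, a flavonoid glucosyltransferase, had 144, 497 and 283 normalized counts at 60 min, against 8.06, 8.84 and 23.6 in the dark (log2 fold change 4.61 ± 0.62). Of the 15 listed genes only 8 passed the filter on zeros. That filter also drops genes that lack counts in 1 group but are high in another. Of these 8, 2 were called higher and none lower. CHS, the first enzyme of the pathway, had 56.1, 21.7 and 21.5 normalized counts at 60 min, against 3.66, 6.12 and 9.07 in the dark, and an adjusted p of 0.0198. DFR, which acts late in anthocyanin synthesis, had no count in any of the 6 libraries. CHS and DFR were picked with their values in view.

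Genes of the circadian clock form interlocked loops in which the MYB-like factors CCA1, LHY and the REVEILLE (RVE) proteins peak around dawn. RVE7 had 2263, 2029 and 2584 normalized counts at 60 min, against 343, 445 and 278 in the dark, a log2 fold change of 2.69 ± 0.31 (edgeR adjusted p = 1.75e-05). RVE7 shared 58.6% of its 31-base words with other loci. CCA1 had 550.1, 1777 and 896 at 60 min, against 133, 183 and 160 in the dark (log2 fold change 2.76 ± 0.42). RVE1 and RVE2 were higher by 2.60 ± 0.46 and 2.12 ± 0.42. RVE2 had a log2 fold change of 1.53 without the PXMT1-low libraries and was not called (adjusted p = 0.0666). These 4 were the genes called of 19 tested, none was called lower, and the median log2 fold change was 1.23. LNK3 and LNK4, outside the list and chosen after their values were seen, belong to a family of transcriptional coactivators in the clock. LNK3 had 869, 1068 and 1100 normalized counts at 60 min, against 109, 107 and 30.8 in the dark (log2 fold change 3.60 ± 0.50), and LNK4 was higher by 2.78 ± 0.45. AT2G46670, one of the 15 genes with the largest rise (5.40 ± 0.99), encodes a CCT motif protein, and 90.2% of its 31-base words are also in the clock gene PRR9. PRR9 itself was left out by the filter on zeros, and had 45.6, 323 and 559.5 normalized counts at 60 min, against 19.1, 24.5 and 10.9 in the dark.

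Heat shock genes were higher too, although the labels state no heat treatment. HSFA2, a heat shock transcription factor, had 200, 573 and 218 normalized counts at 60 min, against 9.52, 14.3 and 1.81 in the dark (log2 fold change 5.14 ± 0.95). HSP70-4, a chaperone of the cytosol, had 2502, 3184 and 2284 at 60 min, against 269, 250 and 368 in the dark (log2 fold change 3.17 ± 0.36, edgeR adjusted p = 1.53e-05). MBF1C, a coactivator of the heat response, and the disaggregase HSP101 were higher by 3.31 ± 0.47 and 2.24 ± 0.37. These were the 4 called of 9 tested, none was called lower, and the median log2 fold change was 2.79. AT1G54050, an HSP20-like gene outside the list and one of the 15 largest rises, had 168, 120 and 103 normalized counts at 60 min, against 4.40, 2.72 and 1.81 in the dark. The temperature of the seedlings in WL is not in the data, and its part in these values was not tested. HSFA2 had a log2 fold change of 5.33 without the PXMT1-low libraries and was not called (adjusted p = 0.0206).

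Of 21 rapid stress-response regulators tested, none passed the main edgeR test at 60 min. At an unadjusted p under 0.05, 4 were higher and none lower, beside 1119 and 760 of all 16747 genes tested. DESeq2's Wald test called 1 higher and none lower. ZAT6, a zinc finger repressor, had 1552, 1543 and 452 normalized counts at 60 min, against 269, 128 and 432 in the dark, and an adjusted p of 0.0137. TCH2, a calmodulin-like gene raised by touch, had 561, 546 and 505 at 60 min, against 240, 222 and 337 in the dark, and an adjusted p of 0.185. In edgeR ZAT6 was called with a term for the PXMT1-low libraries (adjusted p = 0.00437) and without those libraries (0.00736), and TCH2 in neither fit. DREB2A, a dehydration-responsive element binding protein outside the list, was called higher in the main test (2.14 ± 0.40, edgeR adjusted p = 0.00338). It was chosen after its values were seen. WRKY33 of this list is among the genes that separate the PXMT1-low libraries. The list's median was 0.20, and it was -0.25 without the PXMT1-low libraries.

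MIR163 encodes a microRNA that is known to target methyltransferase transcripts such as PXMT1, and it was among the 15 genes with the largest rise. Its precursor had 109, 57.1 and 107 normalized counts at 60 min, against 2.20, 2.72 and 0 in the dark (log2 fold change 5.45 ± 0.94, edgeR adjusted p = 0.00161). The libraries count the precursor transcript, not the mature microRNA. In RefSeq's TAIR10.1 the mature part lies at chr1:24884359-24884382 on the plus strand. The mature sequence is shown with its seed, bases 2 to 8, in capitals, beside the stretch of the PXMT1 coding sequence with the most bases complementary to it, at chr1:24874307-24874330 on the minus strand. In that stretch capitals mark the 19 of 24 positions that pair with the microRNA when no gap is allowed. Only alignments without gaps were searched. With a gap, the lower-case letters atcg can pair as well.
miR163: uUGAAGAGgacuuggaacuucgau
PXMT1 site: catcgAGTTCCAAGTCCTCTTCAA

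PXMT1 did not follow the groups. It had 6580, 2211 and 67.3 normalized counts at 60 min, against 37.4, 2189 and 2662 in the dark (log2 fold change 0.86 ± 2.14, adjusted p = 0.935). Without the 6 PXMT1-low libraries its log2 fold change was 0.84, while MIR163 had 5.35 (edgeR adjusted p = 0.00254). Those libraries were set apart by their PXMT1 count, so that fit cannot test PXMT1 itself. Over the time course MIR163 averaged 1.64, 5.29, 23.0, 91.0, 204 and 369 normalized counts in the dark and after 15, 30, 60, 150 and 360 min of WL, with both classes of library at 60 min between 57.1 and 109.

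**Figure D2:**
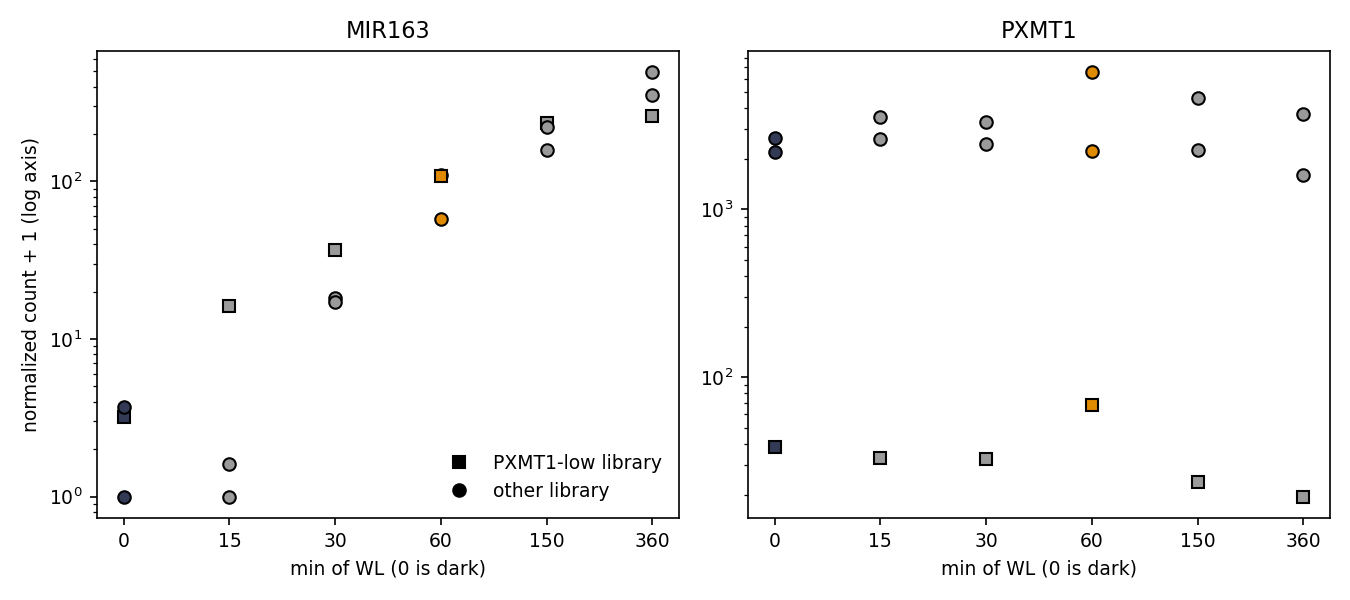
Normalized counts plus 1 (log axis) of the MIR163 precursor and of PXMT1 in all 18 libraries against the time in WL in min (0 is dark); squares are the 6 PXMT1-low libraries and circles the other 12, with the 60 min group in orange and the dark group in dark blue. MIR163 at 60 min lies between 57.1 and 109 in both classes, while PXMT1 in the 2 classes is apart by over an order of magnitude at each time. The classes were defined by the PXMT1 count, so their separation in PXMT1 follows from the definition.

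Further genes with a large rise had other roles or no known one. ABCI21 and ABCI20, ABC proteins without a membrane part, were higher by 6.10 ± 0.56 and 4.46 ± 0.46, the second of them chosen after its values were seen. ABCI21 had 1139, 1346 and 4123 normalized counts at 60 min, against 38.8, 29.2 and 27.2 in the dark, and its highest library at 60 min was the PXMT1-low one. AT3G56290, annotated as a potassium transporter, had 168, 355 and 569.6 at 60 min, against 8.06, 8.16 and 9.07 in the dark (log2 fold change 5.43 ± 0.62). AT3G16175, a thioesterase-like gene, was higher by 4.85 ± 0.80, with 59.1 to 119 normalized counts at 60 min, against 0 to 5.13 in the dark. SMZ and SNZ, AP2-type repressors of flowering that were likewise picked with values in view, were higher by 2.67 ± 0.40 and 3.96 ± 0.57. VTC2, the enzyme that commits sugar to ascorbate synthesis, and the thylakoid proteases FTSH1 and FTSH8 were chosen in the same way and were higher by 2.77 ± 0.39, 2.32 ± 0.48 and 1.93 ± 0.37. Without the PXMT1-low libraries SNZ, FTSH1 and FTSH8 had log2 fold changes of 3.64, 1.94 and 1.68 and were not called (adjusted p = 0.0118, 0.0993 and 0.0357).

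The 8 genes called lower included 3 of the PIF target and shade list: PIL1, XTH15 and HAT2. PIL1, a bHLH gene that rises in shade, had 17.5, 9.85 and 63.0 normalized counts at 60 min, against 350.2, 278 and 252 in the dark, a log2 fold change of -3.23 ± 0.66 (edgeR adjusted p = 0.00777). XTH15, a wall-loosening xyloglucan enzyme, had 1006, 1440 and 903 at 60 min, against 4724, 11239 and 6413 in the dark (log2 fold change -2.74 ± 0.44). HAT2, a class II HD-ZIP factor of auxin and shade responses, had 102, 104 and 109 at 60 min, against 610.2, 332 and 522 in the dark (log2 fold change -2.21 ± 0.38). The 3 libraries of HAT2 at 60 min lay within a narrow range while the dark ones differed more. XTH15 shared 29.9% of its 31-base words with the overlapping locus AT4G14120. Over the list 18 of 21 genes were tested, and 3 were called lower and none higher. None was higher at an unadjusted p under 0.05 or by DESeq2, which called 7 lower. Of the 18, 10 lay wholly below the dark libraries, beside 1255 of all 16747 genes tested. The list's median log2 fold change was -1.89.

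The other 5 genes called lower were BXL2, AT3G21330, GATA2, CBSX5 and AT5G22920. BXL2, a beta-xylosidase of the cell wall, had 21.0, 21.7 and 15.7 normalized counts at 60 min, against 213, 260 and 196 in the dark (log2 fold change -3.52 ± 0.73). AT3G21330, a bHLH gene, had 31.5, 27.6 and 15.7 at 60 min, against 247, 241 and 267 in the dark (log2 fold change -3.36 ± 0.58). GATA2, a GATA factor at the crossing of brassinosteroid and light signalling, had 87.6, 179 and 41.5 at 60 min, against 925, 733 and 511 in the dark (log2 fold change -2.82 ± 0.53). CBSX5 and the RING-type zinc finger gene AT5G22920 were lower, at -2.38 ± 0.49 and -1.95 ± 0.36. Without the 6 PXMT1-low libraries XTH15 and PIL1 were the 2 of these 8 genes still called (adjusted p = 0.000667 and 0.00905), and the other 6 had adjusted p from 0.0176 to 0.062. Their log2 fold changes in that fit were -3.43 for BXL2, -3.12 for AT3G21330, -2.23 for GATA2, -2.71 for CBSX5, -2.06 for HAT2 and -1.60 for AT5G22920. Without dark replicate 1 alone, 1 of the 8 was called.

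Genes of auxin response and of the dark state were lower in part but did not pass the main test. IAA19 and IAA29, auxin-response repressors that PIFs also raise, had log2 differences of -2.15 ± 0.48 and -3.04 ± 0.71 and adjusted p of 0.0181 and 0.0239. With a term for the PXMT1-low libraries both were called (edgeR adjusted p = 0.00716 and 0.00959). Without those libraries neither was called (0.167 and 0.181). IAA29 had 38.5, 41.4 and 17.2 normalized counts at 60 min, against 253, 315 and 223 in the dark, and the groups did not overlap. None of 20 tested auxin genes was called in the main edgeR test, where an unadjusted p under 0.05 was reached by 1 upward and 7 downward. Over all 16747 genes tested it was reached by 1119 upward and 760 downward. DESeq2 called 3 lower and none higher. None of 9 markers of darkness and starvation was called by edgeR, where 6 had an unadjusted p under 0.05 downward and none upward, and DESeq2 called 1 lower and none higher. ASN1, the asparagine synthetase that is high in darkness, had 1321, 3217 and 2397 at 60 min, against 9985, 8461 and 4795 in the dark (log2 difference -1.74 ± 0.47, adjusted p = 0.0701). DIN10, a sugar-starvation gene, had 3717, 4374 and 6666 at 60 min, against 28116, 11232 and 8011 in the dark (adjusted p = 0.0887). Neither gene overlapped between the groups, and the list's median was -0.87.

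The 6 PIF genes themselves were not called in either direction. PIF7 had 63.1, 0 and 77.3 normalized counts at 60 min, against 4.40, 6.80 and 10.9 in the dark (adjusted p = 0.144). PIF5 had 130, 96.5 and 704 at 60 min, against 131, 192 and 61.7 in the dark, and its high value was in the PXMT1-low library. At an unadjusted p under 0.05 in edgeR, 1 PIF gene was higher and none lower, beside 1119 and 760 of all 16747 genes tested. DESeq2 called no PIF gene in either direction.

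The study followed TDIF, a peptide that keeps vascular stem cells from becoming xylem, and its receptors of the PXY family. Of 22 listed genes of TDIF signalling and xylem 16 were tested, and none was called at 60 min by edgeR or DESeq2. The paper reports PXL1 and CLE44, a gene for TDIF, as lowered early by light. It used a regression over all time points, and qRT-PCR for CLE44. The test here is unlike that model, as it sets 60 min alone against dark. No value of CLE44 is given here, so the absence of calls is not a statement about CLE44 at 60 min. An unadjusted p under 0.05 in edgeR was reached by 2 downward and by none upward. Over all 16747 genes tested it was reached by 760 downward and 1119 upward. PXL1, a receptor of this family, had 21.0, 65.0 and 14.3 normalized counts at 60 min, against 147, 113 and 238 in the dark (log2 difference -2.30 ± 0.76, adjusted p = 0.169). Its libraries did not overlap, but 87.9% of its 31-base words also lie in AT1G08592, which overlaps it. BIN2, a kinase downstream of TDIF, had 24.5, 122 and 228 at 60 min, against 478, 645 and 59.9 in the dark, and its groups overlapped. The list's median log2 difference was -0.40.

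**Figure D3:**
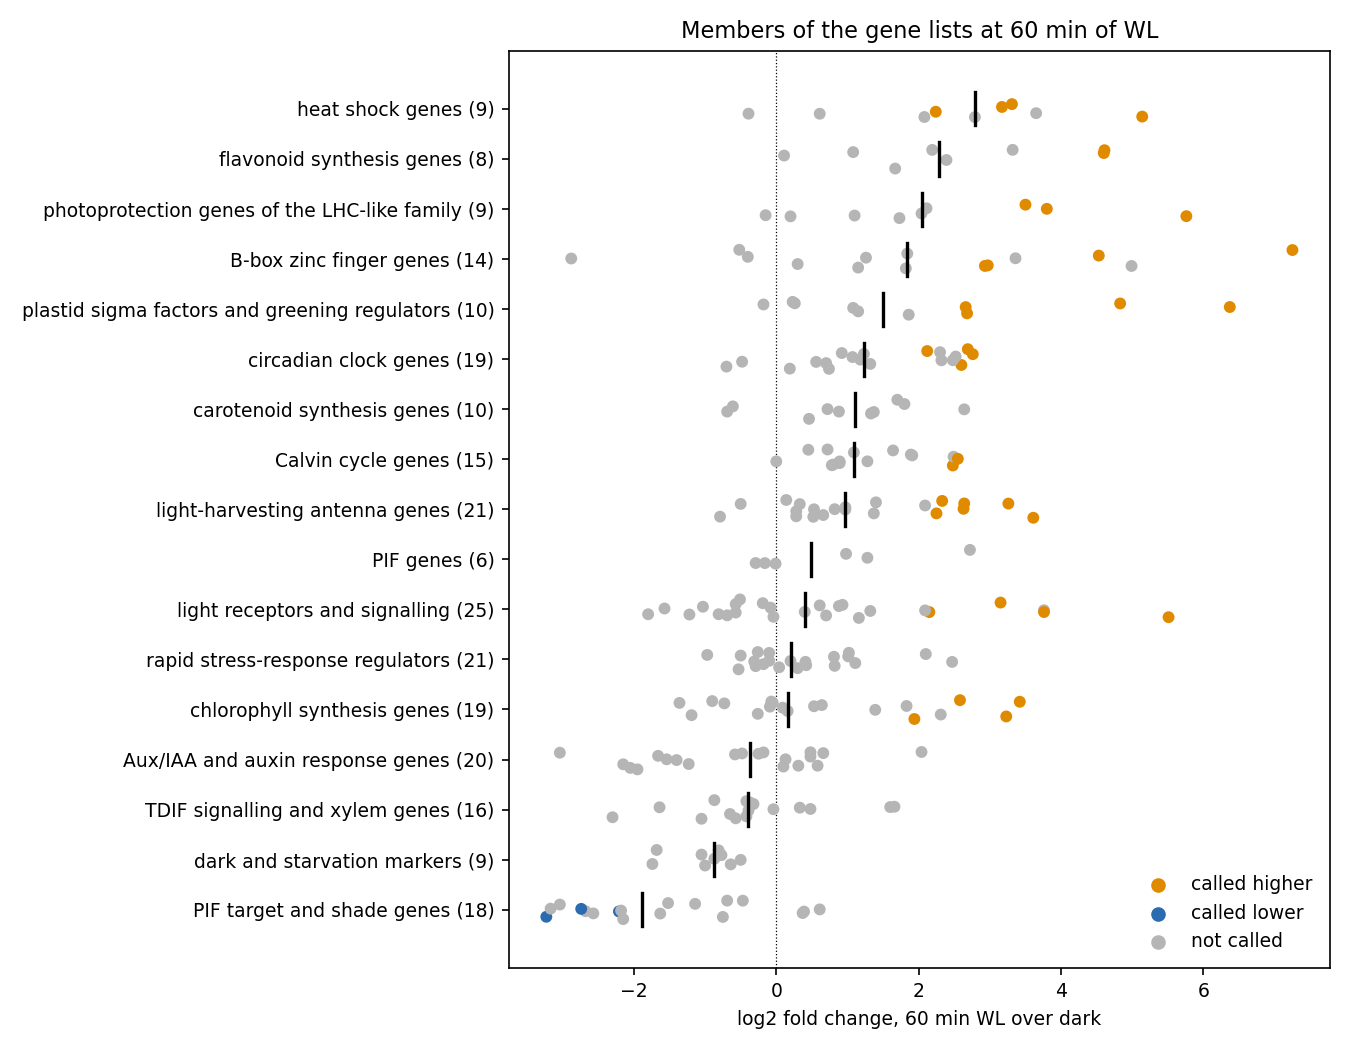
Log2 fold change, 60 min of WL over dark, of each tested member of the 17 functional lists (number tested in parentheses); orange points were called higher, blue points lower and grey points not called, and black bars are list medians. The list medians run from -1.89 for PIF target and shade genes to 2.79 for heat shock genes, and only the PIF target list holds genes called lower.

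No marker of other cell types was called by edgeR or DESeq2, and 1 root marker was lower and none higher at an unadjusted p under 0.05 in edgeR. Summed normalized counts of 6 root markers were 10052, 11209 and 11848 at 60 min, against 39125, 8980 and 12850 in the dark, with the highest sum in the PXMT1-low dark library. TIP2;3 and PYK10 made up nearly all of that sum, and the 2 were the root markers tested. The root hair genes COBL9, EXPA7 and EXPA18 were at 0 to 2.93 in every library. Sums over 5 markers of epidermis and guard cells ran from 1048 to 2421 at 60 min, against 1124 to 2741 in the dark. Those over 4 phloem markers ran from 379 to 659 at 60 min, against 513 to 756 in the dark. Sums over 7 seed storage genes, led by CRU1 in most libraries, ran from 11.8 to 607 at 60 min, against 11.0 to 2621 in the dark, and 2 of the 7, SESA1 and SESA4, had no count in the 6 libraries. The part of these markers in the results was not tested.

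Each light group was compared with the same dark libraries, so the fold changes share their error, and they are given side by side only. Over the 134 genes higher at 60 min the median log2 fold changes were 0.27, 1.35, 2.86, 3.52 and 3.20 after 15, 30, 60, 150 and 360 min of WL. The genes followed different courses. LHCB1.1 had log2 fold changes of -0.50, 0.37, 3.61, 6.60 and 6.64 at 15, 30, 60, 150 and 360 min. BBX30 had 1.95, 5.41, 7.25, 6.35 and 6.54 at the same times. RVE2 had 2.12 at 60 min, -0.41 at 150 min and 0.32 at 360 min, and AT2G46670 had -1.78, 3.04, 5.40, 3.81 and 0.85. Of the heat shock genes, HSFA2 had 2.28, 5.36, 5.14, 4.45 and 3.37 and MBF1C had 1.22, 2.92, 3.31, 1.30 and 0.84. Among the genes lower at 60 min PIL1 had -1.81, -3.08, -3.23, -3.59 and -3.29, while AT5G22920 had -0.15, -0.87, -1.95, -1.82 and -0.07.

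**Figure D4:**
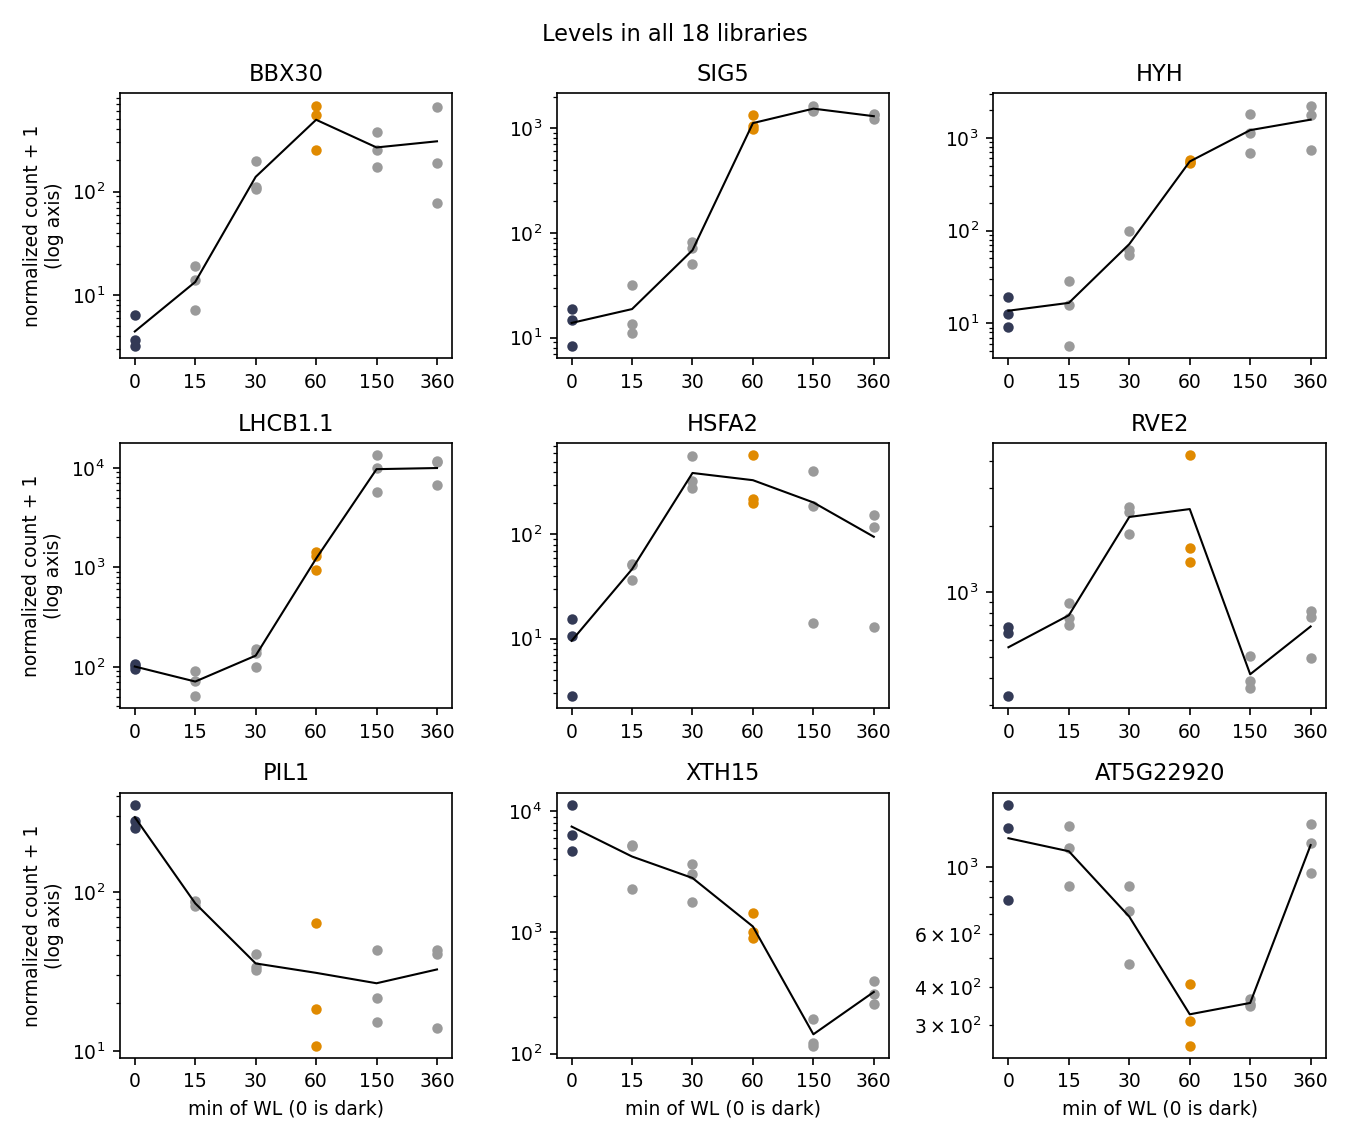
Normalized counts plus 1 (log axis) of 9 genes in all 18 libraries against the time in WL in min (0 is dark); points are libraries, with the 60 min group in orange and the dark group in dark blue, and lines join group means. LHCB1.1 at 60 min (937 to 1422) is above the dark libraries (94.3 to 105), and RVE2 and AT5G22920 lie near their dark levels again at 360 min.

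The start regions of the called genes were searched for 7 short sequences on both strands, from 250 bases before to 50 bases after the annotated start. The G-box CACGTG, which HY5 and PIFs are known to bind, was in 24.1% of 133 regions of genes called higher, and in none of the 8 of genes called lower. It was in 9.2% of the 16289 regions of tested genes and in 7.7% of all 27562. CACGTC, a related element, was in 17.3% of the regions of genes called higher and 7.5% of those tested, and GATAAG, the core bound by GATA factors, in 20.3% and 15.3%. The evening element AAAATATCT was in 6.8% and 3.0%, AAAAATCT, part of the CCA1 binding site, in 16.5% and 8.3%, and CATGTG in 16.5% and 12.8%. GACGTC was in 0.8% and 3.2%. CACGTG and GACGTC read the same on both strands. No test was made of these shares, and a match is not shown to be bound.

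Of the 42 genes that were called higher and named by the rule for named genes, 10 held CACGTG within the 250 bases before the start, and 8 of these are shown as examples of the letters around it, leaving out F3H and RVE2. They are given from 5′ to 3′ along the strand of the gene, with the G-box in capitals, as read from the TAIR10.1 assembly. BBX30 lies at chr4:8708757-8708786 (plus strand), HSFA2 at chr2:11135556-11135585 (plus), ELIP1 at chr3:8085718-8085747 (minus), OHP1 at chr5:419001-419030 (plus), LHCA4 at chr3:17495104-17495133 (minus), CRD1 at chr3:21076441-21076470 (plus), CCA1 at chr2:19245386-19245415 (plus) and RVE1 at chr5:5693086-5693115 (minus).
BBX30: tcaatatttttcCACGTGtacaaccagttt
HSFA2: ttgtcttgtcgcCACGTGctcacataaatg
ELIP1: tactatatgattCACGTGtaatgtttttga
OHP1: tgcaggatataaCACGTGgcgaaatatgaa
LHCA4: ccatttaattgaCACGTGtaacaacaatgg
CRD1: attaattatcgcCACGTGtctggctcccac
CCA1: tagtgtatcagaCACGTGtcgacaaactgg
RVE1: gagaaagagcgaCACGTGgcaaagatggac
The G-box begins 72 bases before the start of BBX30, 56 before that of HSFA2, 66 before ELIP1, 78 before OHP1, 88 before LHCA4, 52 before CRD1, 193 before CCA1 and 111 before RVE1.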

How the data were processed

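The authors quality filtered the reads and quantified them against AtRTD2 transcripts using kallisto. For each of 82190 transcripts per library they deposited an estimated count and a TPM value, an abundance scaled to a fixed library sum. A deposited table of normalized gene counts was not used. The submitters' processing notes also name DESeq 1.36.0 and edgeR 3.26.8. The genome build is not given in the sources used here, and coordinates and sequences are from RefSeq's TAIR10.1. Overlapping and antisense genes are uncertain.

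Both were combined per gene in the manner of tximport's lengthScaledTPM, then rounded. A gene was removed if any group had 2 or 3 replicates at 0, following the study's methods. Counts of all 18 libraries were normalized by TMM and fitted by group with edgeR 4.0.16 (R 4.3.3) by its robust quasi-likelihood method, without a term for replicate number. The 60 min group was tested against the dark group, with Benjamini-Hochberg adjusted p below 0.01 over all genes. Standard errors are the log2 fold change divided by the square root of the F statistic. Exact two-sided permutation tests of single genes, 3 against 3, cannot go below p = 0.1, and gave 0.1 for every called gene named by the rule. P-values measure the spread between libraries, which the study describes as independent experiments. The biological coefficient of variation was 0.540. Pairs of replicates differed by 21.2 to 72 times the counting noise (chi-square per degree of freedom, without plastid ribosomal RNA), so no pair looked like repeat deposits of one library; this does not show that the replicates came from separate cultures. Intervals of counting error alone are not used.

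Samples were grouped by their labels. Named genes were the 15 largest rises and up to 10 largest falls among called genes whose groups did not overlap and whose mean normalized count was 10 or more. In each list they were the called members (at most 4), with 2 further members of smallest p where fewer than 2 were called. The genes left out by the zero filter were named likewise. Other genes are marked as chosen after their values were seen. The members and gene lists were chosen with earlier results of these data known. Replicate numbers did not pair the libraries (correlations of same-numbered deviations -0.189, -0.0594 and -0.266). PXMT1-low libraries, below 100 normalized counts of PXMT1, and the 2 fits that treat them were defined after seeing the data. For the split of the libraries, log2(normalized count + 5) of genes with a mean above 5 was compared. Shares of 31-base words were taken between annotated transcripts of different loci, of either strand. Besides the genes marked above, SMZ (26.2%), MBF1C (19.1%), TCH2 (18.3%), OHP1 (17.3%), PIF7 (14.7%) and BBX24 (14.3%) also shared such words with other loci. Of the tested genes, 16620 had an entry in RefSeq's gene table. The fitting procedure was tested on simulated counts. As alternatives, the counts were summed without length scaling and the fit was repeated with size factors of DESeq2 (version 1.42.0), library totals with and without plastid ribosomal RNA, 2 other filters, a fit on the 6 libraries, DESeq2's Wald test, a threshold of 0.05, thinned counts, the replicate block and each library left out.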

Additional observations from a re-analysis of the deposited data

Results flagged for a closer look

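DOGT1 (AT2G36800), also called UGT73C5, a glucosyltransferase known to act on brassinosteroids and toxins, was left out of the test because 2 of its 3 dark libraries had no count, and it had a signal at 60 min above the dark level. Before normalization it had 130, 160 and 368 counts at 60 min, against 2, 0 and 0 in the dark. The normalized counts were 455.5, 315 and 527 at 60 min, against 1.47, 0 and 0 in the dark. With filterByExpr over the 6 libraries as the filter its adjusted p was 1.66e-05 by edgeR. Of its 31-base words 16.9% are shared with other loci.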

How the results depend on the processing

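Against 134 genes higher and 8 lower, DESeq2's Wald test called 286 and 46, and a threshold of 0.05 called 231 and 34. Fewer were called in these fits: 20 higher and 0 lower on the 6 libraries alone (804 and 563 at an unadjusted p under 0.05 in edgeR), 18 and 0 with the 6 libraries thinned to 1992250 counts (821 and 521), and 1 and 0 with library totals that include plastid ribosomal RNA (409 and 100). Of the 50 named called genes, 14 kept their call on the 6 libraries alone and 1 with totals that include plastid ribosomal RNA. After thinning, 12 of 47 kept it. Without dark replicate 1, 2 or 3, 27, 29 and 29 of the 50 kept it. With no filter 148 were higher and 20 lower. The other settings stayed near: 133 and 6 with summed counts, 135 and 8 with DESeq2's size factors, 112 and 7 with totals without plastid ribosomal RNA, and 133 and 9 with filterByExpr. Leaving out 1 library gave 66 to 126 higher (lowest without dark replicate 1) and 1 to 7 lower. The replicate block gave 104 and 4, all among the genes of the main test, and 40 of the 50 named called genes kept their call; the numbers did not pair the libraries. Chosen after seeing the data, the term for PXMT1-low libraries gave 194 and 25, and leaving out those 6 libraries gave 85 and 5, with 33 of the 50 named called genes still called. No named called gene changed direction in any setting run. Of list medians, those of light signalling and PIF genes changed sign without replicate 3 at 60 min (-0.46 and -0.23), those of auxin genes (0.06) and stress regulators (-0.11) without dark replicate 1, those of light signalling (-0.19), PIF genes (-0.28) and stress regulators (-0.25) without the PXMT1-low libraries, and that of epidermis markers (0.03) with totals that include plastid ribosomal RNA. The cause of these differences was not tested.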

Other observations

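BON1 (AT5G61900), a copine gene that restrains defence, had 0, 0 and 0 counts at 60 min, against 47, 71 and 76 in the dark, and was left out by the filter on zeros. The counts in this paragraph are not normalized, and the libraries differed in depth. In normalized counts BON1 had 34.4, 48.3 and 138 in the dark. With filterByExpr over the 6 libraries its adjusted p was 0.00698 by edgeR. Of its 31-base words 94.3% also lie in AT5G61910, which overlaps it, so the reads of the 2 cannot be told apart. With no filter 148 genes were called higher and 20 lower, of which 128 and 8 were among those of the main test. Of the others, 3 further genes that the zero filter had left out are given as examples. The homeodomain-like gene AT1G58220 had 0, 0 and 12 counts at 60 min, against 154, 193 and 45 in the dark. AT3G44450 had 5, 11 and 27 counts at 60 min and none in the dark, and the thionin gene THI2.2 (AT5G36910) had 0, 16 and 53 counts at 60 min and none in the dark.

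Genes of photorespiration and of electron transport outside the lists were also among the genes called higher, and were chosen after their values were seen. The glyoxylate aminotransferase GGT1 (AT1G23310) and the glycine decarboxylase subunit GLDP1 had log2 fold changes of 1.89 and 1.92. PGR5 of cyclic electron flow had 2.68, and the ferredoxins FD1 and FED A had 2.76 and 2.20. HSFA6B, another heat shock factor, had 2.85, and 2.94 without the PXMT1-low libraries, where it was not called (adjusted p = 0.0263 by edgeR). The cochaperone genes Hop3, AT5G48570 (ROF2) and ROF1 had 2.73, 3.40 and 1.57.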
